A study of Mus musculus with 12 samples.

Results

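The genes described here are 10 mouse genes of MHC class I antigen presentation, chosen by symbol: the heavy chains H2-K1 and H2-D1, the light chain B2m, the peptide transporter subunits Tap1 and Tap2, tapasin (Tapbp), the immunoproteasome subunits Psmb8, Psmb9 and Psmb10, and the regulator Nlrc5. All 10 were found among the 30994 genes counted. RNA was counted in SIM-A9, a microglial cell line from C57BL/6 mice, in 4 groups of 3 libraries each. The groups were C13 with TDP-43 aggregates, C13 with sham aggregates, DMSO with TDP-43 aggregates and DMSO with sham aggregates. C13, given at 10 µM, is named in the series title as an inhibitor of the kinase MOK, and DMSO is its solvent. All 4 groups were pretreated for 1 h with 10 µM polymyxin B, which neutralizes bacterial endotoxin, then C13 or DMSO for 1 h, and then TDP-43 or sham aggregates at 5 µg/mL for 4 h in all. During the last 90 min every culture held 100 µM 4-thiouridine, a labelled nucleoside, so that RNA made in that time (nascent RNA) could be counted apart from total RNA by SLAM-seq. All libraries came from 1 cell line, so that the replicates are cultures and not animals.

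MHC class I molecules hold a heavy chain and beta-2 microglobulin, and show peptides from inside the cell to CD8+ T cells. The peptides are cut by the proteasome, whose catalytic subunits are exchanged for inducible ones in the immunoproteasome, pumped into the endoplasmic reticulum by TAP and loaded with the help of tapasin. The genes are known to rise together under interferon, through IRF1 and the transactivator NLRC5, and in microglia they are part of the interferon response.

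The genes lie on 3 chromosomes of GRCm38. The chain of Psmb9 (17:34181987-34187764), Tap1 (17:34187553-34197225), Psmb8 (17:34197721-34201454) and Tap2 (17:34203527-34216321) spans 34335 bases of chromosome 17, where the annotated Psmb9 and Tap1 overlap by 212 bases on opposite strands. Tapbp (17:33915899-33929292), H2-K1 (17:33996017-34000347) and H2-D1 (17:35262730-35267499) are on the same chromosome, B2m (2:122147686-122153083) is on chromosome 2, and Psmb10 (8:105935735-105938444) and Nlrc5 (8:94434356-94527272) are on chromosome 8. H2-K1 and H2-D1 overlap no other annotated gene. The other 8 overlap at least 1 other annotated gene, and whether strand was used in counting is not given in the sources used here, so reads in those overlaps cannot be assigned with certainty. Of the 201 stretches of 50 bases in the last 250 bases of the H2-K1 transcript, the part that 3′-end libraries read, 2 also occurred in another gene, H2-D1. Of those of H2-D1, 11 occurred in another gene, 9 in Cflar and 2 in H2-K1.

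The upstream sequences of the heavy and light chain genes are shown because they carry the sites through which class I genes are known to be controlled together. They come from the RefSeq promoters of GRCm38.p6, in which 8 of the 10 genes had an entry, and Tap2 and Nlrc5 had none. Capitals mark the κB motif (the first run of capitals in H2-K1, 10 bases long), the interferon regulatory factor core AANNGAAA (in H2-K1 and H2-D1 on the other strand), the cAMP response core TGACG and the CCAAT box ATTGG. The H2-K1 window is 17:34000348-34000547 on the minus strand and the B2m window is 2:122147487-122147685 on the plus strand.
H2-K1: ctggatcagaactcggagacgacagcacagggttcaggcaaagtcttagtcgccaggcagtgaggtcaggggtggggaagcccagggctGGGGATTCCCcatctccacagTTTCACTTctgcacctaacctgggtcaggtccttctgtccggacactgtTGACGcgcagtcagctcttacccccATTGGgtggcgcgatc
B2m: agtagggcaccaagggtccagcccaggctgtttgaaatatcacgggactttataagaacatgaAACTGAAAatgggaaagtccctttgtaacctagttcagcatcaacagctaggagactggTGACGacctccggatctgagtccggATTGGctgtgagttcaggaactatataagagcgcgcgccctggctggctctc

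The stretch from the κB motif to the interferon regulatory factor core is set side by side for both heavy chains, since its 29 bases hold 1 difference, A18T, counted from 1 at the 5′ end with the H2-K1 base first. It lies at 17:34000430-34000458 on the minus strand for H2-K1 and at 17:35262923-35262951 on the plus strand for H2-D1, where it falls within an annotated H2-D1 exon. Capitals mark the κB motif and the interferon regulatory factor core.
H2-K1: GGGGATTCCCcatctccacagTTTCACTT
H2-D1: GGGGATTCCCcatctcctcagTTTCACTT
Motifs were searched on both strands of whole RefSeq promoters, which are longer than the windows printed (17:34000298-34000597 for H2-K1) and reach past the gene's start. The κB motif was found in 0.107% of 32851 promoters, the interferon regulatory factor core in 23.9%, the CCAAT box in 37.4% and the cAMP response core in 20.8%. Of the 8 genes with an entry, H2-K1 and H2-D1 held the κB motif, and these and B2m the interferon regulatory factor core. The STAT core TTCNNNGAA was also searched for, and was found in 8.30% of promoters and, of the 8 genes, in Psmb8 alone. The κB search took only the exact sequence capitalized in H2-K1, so its rarity cannot be set against that of the shorter or looser cores. κB sites of other sequence were not searched for, so lower case in the B2m window does not mean that it holds none. Such matches describe letters and not bound factors.

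Depth was 17436397 to 41779882 total reads per library, of which 552042 to 2722812 were nascent (1.88% to 7.11%). The share of 7.11% was that of replicate 2 of DMSO with sham, and the next highest was 3.40%, in replicate 1 of that group. Levels are given as CPM, which are read counts scaled to library size. Because 3′-end libraries give about 1 read per transcript molecule sampled, CPM can be compared between genes without a length correction. Of 13 microglia and macrophage markers, 12 averaged over 1 CPM, and their sum ran from 1409 to 2414 CPM, with P2ry12 at 3.83 CPM and Tmem119 at 0.510 CPM on average. Summed markers were at most 1.76 CPM for astrocytes, 4.17 for neurons, 0.141 for fibroblasts and 0.0577 for T and NK cells. Those for dendritic cells summed to 22.3 to 31.8 (2 of 5 averaged over 1 CPM, and Flt3 was at 0). For oligodendrocytes the sum was 4.47 to 46.4 (1 of 5 over 1 CPM, Mog and Mag at 0). For endothelial cells it was 100.02 to 149 (2 of 5 over 1 CPM, Cldn5 and Cdh5 at 0). Replicate 3 of C13 with sham and replicate 3 of DMSO with TDP-43 stood apart from the other libraries in principal components of both kinds of RNA, the first of these also by the highest share of mitochondrial ribosomal RNA (3.70%, against 1.17% to 2.52% in the others). Replicate 2 of C13 with sham stood apart in total RNA alone, and leaving it out as well leaves 1 library in its group, which is then assumed to vary like the other groups. The counts of Tap1 and Tapbp were even in all 24 columns, and 1917 of the 9932 genes averaging over 50 total reads had counts with a common divisor of 2 or more. No label or header says why.

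The heavy and light chains were the most abundant of the 10 genes in total RNA, and the subunits of the peptide supply were far lower. H2-D1, which encodes a classical heavy chain, averaged 1316 ± 202 CPM, H2-K1, the other classical heavy chain, 990.4 ± 187 and B2m 432 ± 107 (SD, n = 12 libraries). Tapbp, which bridges TAP and the heavy chain, averaged 130.1 ± 14.2 CPM. Psmb8, which carries the inducible chymotrypsin-like site, averaged 50.0 ± 9.27, Nlrc5 25.9 ± 8.04, Tap1 23.9 ± 7.45, Psmb10 18.0 ± 6.20, Tap2 11.7 ± 7.02 and Psmb9 9.66 ± 2.88. The ranges of Tapbp and Psmb8 overlapped with no neighbour in this order. Those of H2-D1 and H2-K1, of H2-K1 and B2m, and of all neighbours among Nlrc5, Tap1, Psmb10, Tap2 and Psmb9 did overlap. Divided by the factor of 2 in their counts, Tapbp would average 65.0 CPM (52.6 to 76.1), a range that overlaps that of Psmb8, and Tap1 11.97 CPM. Tapbp varied least between libraries, with a coefficient of variation of 10.9%, and Tap2 most, with 60.3%.

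**Figure D1:**
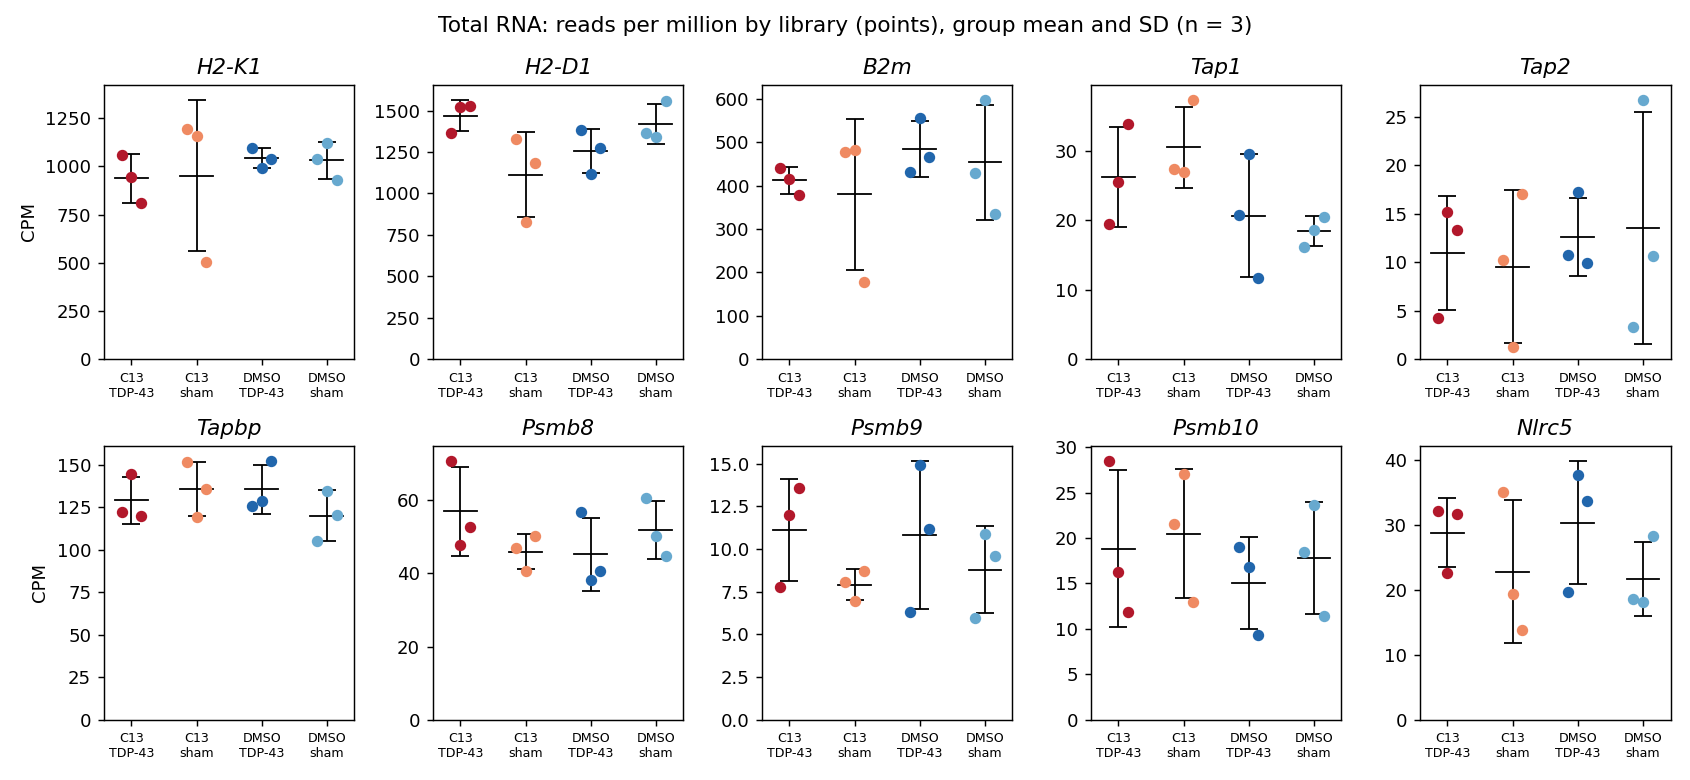
Total RNA level (CPM, y axis from 0) of each of the 10 genes in 4 groups of 3 libraries; points are libraries, lines the group mean and bars ± 1 SD. H2-K1 and B2m show 1 low library in C13 with sham, at 501 and 179 CPM, and the groups of most genes overlap.

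By library, total H2-D1 was 1363, 1520.0 and 1525 CPM in C13 with TDP-43 and 1329, 829 and 1185 CPM in C13 with sham. With DMSO it was 1384, 1117 and 1273 CPM with TDP-43 and 1363, 1341 and 1559 CPM with sham. All C13 with TDP-43 libraries lay above all C13 with sham libraries, and all C13 with sham libraries lay below all DMSO with sham libraries. H2-K1 was 1058, 946 and 808 CPM in C13 with TDP-43 and 1196, 1158 and 501 CPM in C13 with sham. With DMSO it was 1097, 992 and 1036 CPM with TDP-43 and 1040.0, 1121 and 930.5 CPM with sham. Its groups overlapped, and replicate 3 of C13 with sham was far below the rest. B2m was 441, 416 and 378 CPM in C13 with TDP-43 and 478, 482 and 179 CPM in C13 with sham. With DMSO it was 431, 556 and 467 CPM with TDP-43 and 429, 596 and 335 CPM with sham. It was low in the same C13 with sham library as H2-K1, the one with the highest share of mitochondrial ribosomal RNA, whose part in these levels was not tested.

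Among the lower genes, total Nlrc5 was 32.1, 22.6 and 31.7 CPM in C13 with TDP-43 and 35.1, 19.3 and 13.9 CPM in C13 with sham. With DMSO it was 19.6, 37.6 and 33.7 CPM with TDP-43 and 18.6, 18.1 and 28.2 CPM with sham. Each of its groups overlapped with the other groups. Tap2 was 4.22, 15.2 and 13.3 CPM in C13 with TDP-43 and 10.3, 1.26 and 17.01 CPM in C13 with sham. With DMSO it was 10.8, 17.2 and 9.88 CPM with TDP-43 and 3.26, 26.7 and 10.7 CPM with sham. Its groups overlapped too, and the lowest library, replicate 2 of C13 with sham, held 25 reads. Psmb8, Psmb9, Psmb10 and Tapbp stayed within 38.3 to 70.7, 5.96 to 14.9, 9.34 to 28.4 and 105 to 152 CPM over the 12 libraries.

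Over the 12 libraries log2 CPM of H2-K1 and B2m had a Pearson correlation of 0.906, which was 0.597 without replicate 3 of C13 with sham. Relative to all nascent reads, H2-K1 and B2m were not low in that library, at 1286 and 651 nascent CPM. Its nascent share, 1.88%, was the lowest of all libraries, so these values do not give nascent levels relative to total reads. Psmb8 and Psmb9, whose products sit in the same particle, had a correlation of -0.494 (-0.794 after group means were removed, the lowest of all pairs of the 10 genes). Psmb8 and Psmb10, the third subunit of that particle, had one of 0.365 (0.401 after group means were removed). Psmb9 and Psmb10 had one of -0.468 (-0.452 after group means were removed). These correlations describe libraries that differ in depth and composition and carry no test.

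The first comparison asks what TDP-43 aggregates did to these genes. In total RNA none of the 10 passed the test in either drug arm or in the average over both (edgeR quasi-likelihood test, adjusted p under 0.05 over all genes tested). In the average of both arms Nlrc5, the class I transactivator, had the highest log2 fold change at 0.41 (SE 0.26) and Psmb10 the lowest at -0.18 (SE 0.30), and 7 of the 10 genes were positive. The median over the 10 was 0.05, against -0.01 over all 11827 genes, of which 48.8% were positive. Without the 2 libraries that stand apart in both kinds of RNA the count was again 7, with a median of 0.13 and Nlrc5 at 0.24, and without the third as well 5 were positive, with a median of 0.03 and Nlrc5 at 0.07. DESeq2 also called 0 of the 10 genes, and 0 of them had an unadjusted p under 0.05, against 4.73% of all genes. The edgeR test called 0.00% of all genes.

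With C13, 0 of 10 genes passed the total RNA test (0.00% of all genes), and H2-D1 was the 1 gene whose groups did not overlap, against 12.8% of all genes. H2-D1 averaged 1469 ± 92.2 CPM in C13 with TDP-43 and 1114 ± 258 CPM in C13 with sham (SD, n = 3 each), a log2 difference of 0.40 (SE 0.19, edgeR adjusted p = 0.568), and of 0.24 to 0.55 when each library was left out in turn. The lowest of these was without replicate 2 of C13 with sham, and without all 3 libraries that stand apart it was 0.16. With DMSO, 0 of 10 genes passed (0.00% of all genes) and 0 had groups that did not overlap, against 11.9% of all genes, and H2-D1 averaged 1258 ± 134 CPM in DMSO with TDP-43 and 1421 ± 120.3 CPM in DMSO with sham. Its log2 difference there was -0.18 (SE 0.19, edgeR adjusted p = 0.999).

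Nascent RNA, which holds 127 to 3010 reads of the heavy chains but as few as 0 of Psmb9 and Nlrc5 in a library, gave the same count of calls. In the average over both arms 0 of 10 genes passed (0.0141% of all genes did, which is 1 gene), with 5 positive (49.1% of all genes were), a median of 0.08 against -0.02 over all 7078 genes, and Tap1 highest at 1.37 (SE 0.91, edgeR adjusted p = 0.942). Without the 2 libraries that stand apart 9 were positive and the median was 0.34, and without the third as well 7 were positive with a median of 0.11. The share of all genes positive in those settings is not given here. These nascent values are relative to all nascent reads of a library. With the library sizes of the total table instead, 3 of the 10 were positive with a median of -0.16, against -0.25 over all genes. With DMSO, 0 of 10 genes passed (0.00% of all genes) and 8 were positive, against 48.2% of all genes, but with the total table's library sizes 1 was, with a median of -0.44 against -0.84 over all genes. DMSO with sham holds replicate 2, whose nascent share of 7.11% was far above the others, and its part in values under this scaling was not tested. The groups of 1 gene did not overlap, against 10.3% of all genes. This was Tapbp, at 184, 156 and 247 nascent CPM in DMSO with TDP-43, against 97.3, 129.8 and 47.9 in DMSO with sham. All 3 aggregate libraries were above all 3 sham libraries, with a log2 difference of 1.09 (SE 0.61, edgeR adjusted p = 1.00).

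With C13, 0 of 10 genes passed in nascent RNA (0.00% of all genes) and 5 were positive, against 51.3% of all genes. With the total table's library sizes 8 were, with a median of 0.23 against 0.35 over all genes. The groups of 2 genes did not overlap, against 13.1% of all genes. Psmb10, which carries the inducible trypsin-like site, was at 67.2, 42.9 and 55.6 nascent CPM in C13 with TDP-43, against 30.4, 14.2 and 15.9 in C13 with sham, a log2 difference of 1.45 (SE 1.02, edgeR adjusted p = 0.752). The aggregate libraries were all higher, on 8 to 114 reads per library over the whole table, and without the 3 libraries that stand apart the log2 difference was 0.89. B2m was at 597, 504 and 463 nascent CPM in C13 with TDP-43, against 647, 798 and 651 in C13 with sham, a log2 difference of -0.42 (SE 0.44, edgeR adjusted p = 0.838). Leaving out each library in turn it was -0.53 to -0.28, the value nearest 0 being without replicate 2 of C13 with sham. Here the aggregate libraries were all lower, while total B2m overlapped between the same groups.

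**Figure D2:**
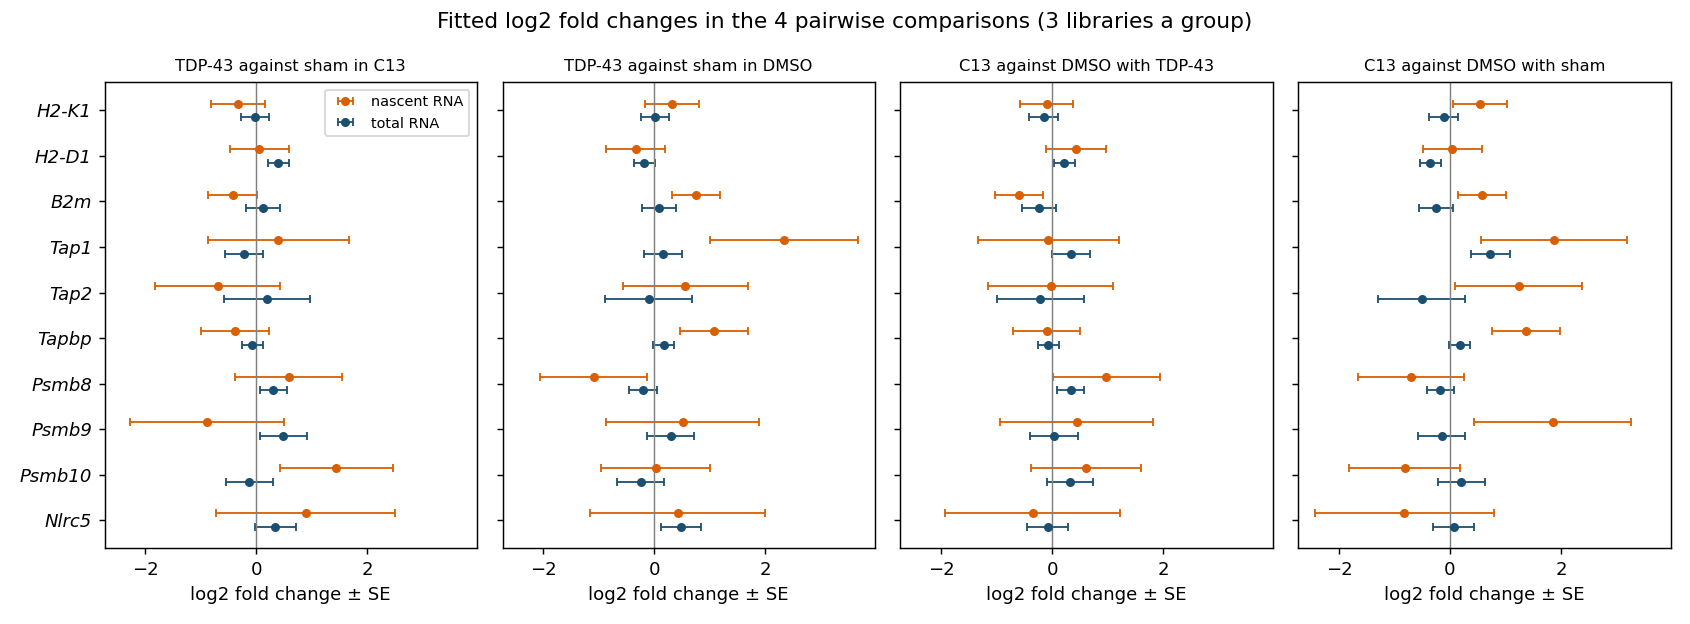
Fitted log2 fold changes (x axis, points) with standard errors (bars) of the 10 genes in the 4 pairwise comparisons, for nascent (orange) and total RNA (blue), 3 libraries a group. No gene passed the test, and each standard error is larger in nascent than in total RNA.

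The heavy chains overlapped between groups in nascent RNA. H2-K1 was at 1026, 746 and 736 nascent CPM in C13 with TDP-43 and 1134, 717 and 1286 in C13 with sham. With DMSO it was at 873, 758 and 1054 with TDP-43 and 856, 1018 and 274 with sham, where replicate 3 was the lowest of all 12. H2-D1 ran over 601 to 833 in C13 with TDP-43, 267 to 931 in C13 with sham, 245 to 796 in DMSO with TDP-43 and 496 to 818 in DMSO with sham, with its lowest library in DMSO with TDP-43, replicate 3, one of those that stand apart.

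The second comparison asks what C13 did. With TDP-43 aggregates, the comparison that the series title names, 0 of 10 genes passed in total RNA (0.00% of all genes) and 0 had groups that did not overlap, against 13.4% of all genes. The log2 fold changes ran from -0.23 for B2m to 0.35 for Tap1, with 5 positive (49.6% of all genes were) and a median of -0.02, against -0.00 over all genes. Without replicate 3 of DMSO with TDP-43 that of Tap1 was 0.08. In nascent RNA 0 of 10 genes passed (0.00% of all genes), and the groups of 2 did not overlap, against 10.4% of all genes. Psmb8 was at 115, 104 and 76.1 nascent CPM in C13 with TDP-43, against 45.2, 65.4 and 38.5 in DMSO with TDP-43 (log2 difference 0.98, SE 0.97, edgeR adjusted p = 0.998). Psmb10 was at 67.2, 42.9 and 55.6 nascent CPM in C13 with TDP-43, against 41.8, 36.0 and 30.8 in DMSO with TDP-43 (log2 difference 0.61, SE 0.99, edgeR adjusted p = 0.998). For these 2 inducible subunits each C13 library was above each DMSO library, and for both the standard error was about as large as or larger than the difference. The groups of Psmb9 overlapped (log2 difference 0.44, SE 1.38). With sham aggregates the nascent difference had the other sign, at -0.70 (SE 0.96) for Psmb8 and -0.81 (SE 1.00) for Psmb10, in groups that overlapped. Psmb8 had 2 nascent reads in replicate 3 of C13 with sham.

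With sham aggregates, 0 of 10 genes passed in total RNA (0.00% of all genes), and the groups of 2 did not overlap, against 10.1% of all genes. Tap1, the transporter subunit that adjoins Psmb9 head to head, was at 27.4, 26.9 and 37.2 CPM in C13 with sham, against 16.1, 18.6 and 20.4 in DMSO with sham, a log2 difference of 0.73 (SE 0.34, edgeR adjusted p = 0.813). The C13 libraries were all higher. H2-D1 was lower in all 3 C13 with sham libraries than in all 3 DMSO with sham libraries, at -0.35 (SE 0.19, edgeR adjusted p = 0.847). Leaving out each library in turn it was -0.50 to -0.18, the value nearest 0 being without replicate 2 of C13 with sham, and it was -0.10 without the 3 libraries that stand apart. The median over the 10 genes was -0.13, against -0.01 over all genes, and it was 0.12 without the 2 libraries that stand apart.

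In nascent RNA of the sham arms 0 of 10 genes passed (0.00% of all genes), 1 had an unadjusted p under 0.05 (6.89% of all genes did), and the groups of 2 did not overlap, against 14.3% of all genes. Tapbp was at 169, 251 and 294 nascent CPM in C13 with sham, against 97.3, 129.8 and 47.9 in DMSO with sham, a log2 difference of 1.37 (SE 0.62, unadjusted p = 0.0394, edgeR adjusted p = 0.705). B2m was at 647, 798 and 651 nascent CPM in C13 with sham, against 463, 547 and 393 in DMSO with sham (log2 difference 0.58, SE 0.44, edgeR adjusted p = 0.814). In both genes each C13 library was above each DMSO library. Without the 3 libraries that stand apart these were 0.81 for Tapbp and 0.40 for B2m. Scaled by total-table library sizes, the median over all nascent genes became -1.02 in this comparison. The part of replicate 2 of DMSO with sham in this shift, at a nascent share of 7.11%, was not tested. Under that scaling B2m came to -0.47 and Tapbp to 0.08 for C13 against DMSO with sham, and Tapbp to -0.02 for TDP-43 against sham in DMSO, all above the shifted medians.

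Averaged over both aggregate arms, 0 of 10 genes passed in total RNA (0.00% of all genes) and 0 in nascent RNA (0.00% of all genes). Total Tap1 had the 1 unadjusted p under 0.05 among the 10 (4.08% of all genes had one), with a log2 difference of 0.54 (SE 0.24, unadjusted p = 0.0426, edgeR adjusted p = 0.999). Tap1 was at 19.4, 25.5 and 33.8 CPM in C13 with TDP-43, against 20.8, 29.5 and 11.7 in DMSO with TDP-43, so that the groups with aggregates overlapped. Over the 10 genes the nascent log2 fold changes had 7 positive (49.1% of all genes were) and a median of 0.23, against -0.02 over all genes. Without the 2 libraries that stand apart 6 were positive and the median was 0.10, and without the third as well 8 were positive with a median of 0.28. With the total table's library sizes 4 were positive, with a median of -0.14 against -0.45 over all genes.

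**Figure D3:**
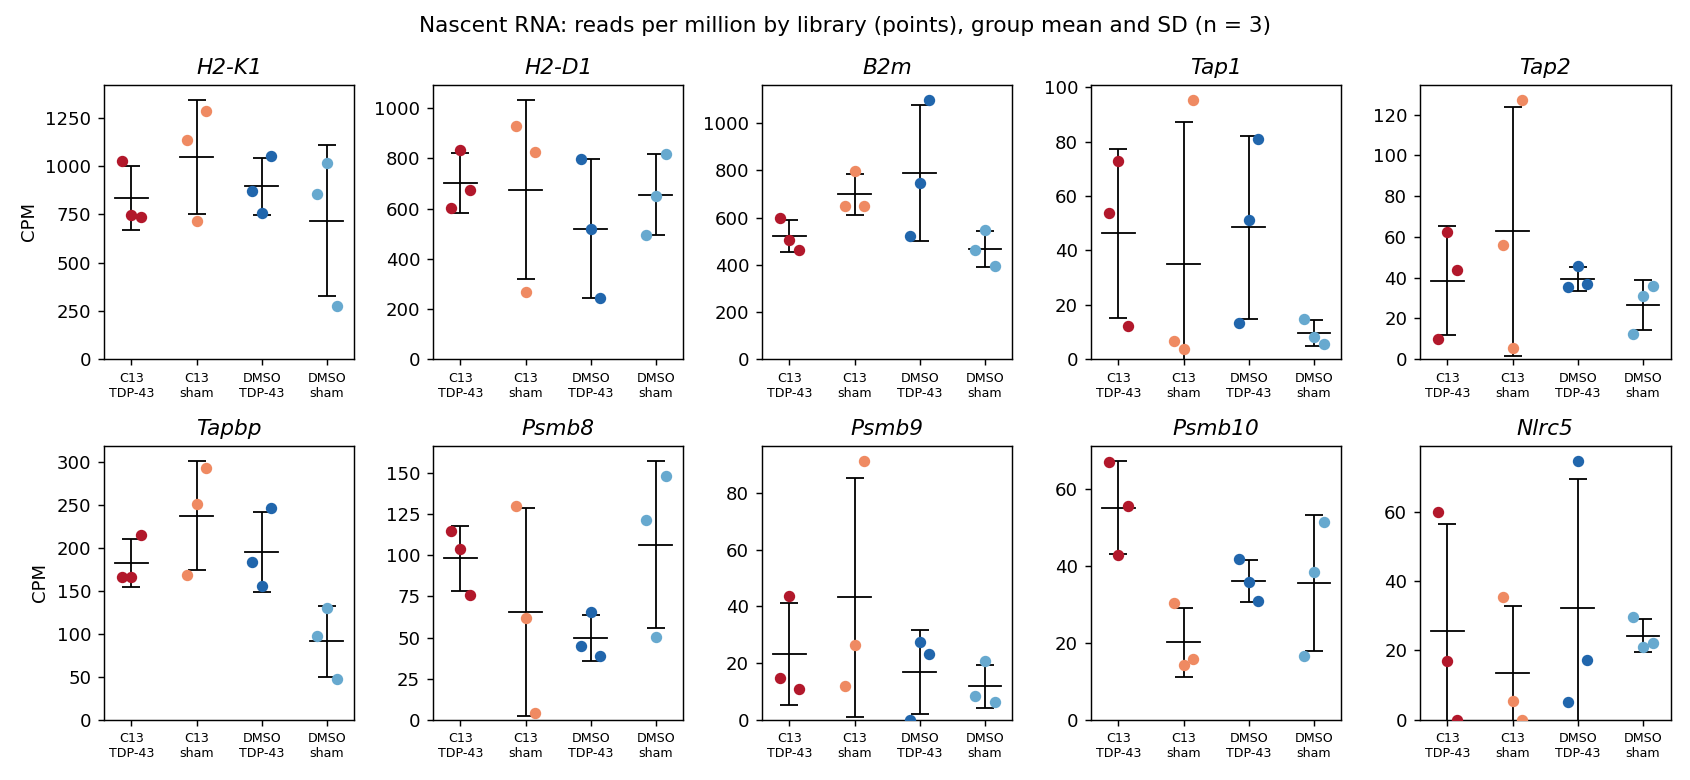
Nascent RNA level (nascent CPM, y axis from 0) of each gene in 4 groups of 3 libraries; points are libraries, lines the group mean and bars ± 1 SD. Tapbp is lower in all 3 DMSO with sham libraries than in the other 9, while Tap1, Psmb9 and Nlrc5 spread from near 0 to over 70 CPM.

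Whether the response to aggregates differed between C13 and DMSO was tested as an interaction. In total RNA 0 of 10 genes passed (0.00% of all genes). H2-D1 had the 1 unadjusted p under 0.05 (7.96% of all genes had one), at 0.58 (SE 0.27, unadjusted p = 0.0485, edgeR adjusted p = 0.622), and at 0.35 without the 3 libraries that stand apart. In nascent RNA 0 of 10 genes passed (0.00% of all genes), with 4 positive (52.2% of all genes were) and a median of -0.91, against 0.09 over all genes. With the total table's library sizes 10 of 10 were positive, with a median of 0.74 against 1.19 over all genes. The interaction also holds replicate 2 of DMSO with sham, the library of the highest nascent share, whose part here was not tested. Without the 2 libraries that stand apart 5 were positive and the median was -0.07, and without the third as well 4 were positive with a median of -0.47. The nascent value furthest from 0 was that of Tap1, at -1.94 (SE 1.81, edgeR adjusted p = 0.849), and it turned to 0.91 without replicate 3 of C13 with sham.

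The nascent share of a gene, its nascent reads over its total reads, was set against that of its library to compare labelling between genes. It depends on labelling and on the bases that can be converted as well as on RNA turnover. H2-D1 had a low share in every library: its share divided by the library's was 0.434 to 0.574 in C13 with TDP-43, 0.322 to 0.747 in C13 with sham, 0.150 to 0.623 in DMSO with TDP-43 and 0.410 to 0.548 in DMSO with sham. It was below 1 in 12 of 12 libraries, as were 4.58% of the 7078 genes. Its median of 0.492 exceeded that of 30.5% of genes, so it was not extreme among all genes, whose median was 0.730. Tap2, the partner of Tap1 in the transporter, had the highest median of the 10 genes, 3.49, with values of 1.31 to 5.79, above 1 in 12 of 12 libraries on 3 to 92 nascent reads. Above 1 in all 12 libraries were 4.03% of genes, and 97.2% of genes had a lower median than Tap2. B2m was also above 1 in 12 of 12 libraries, with a median of 1.38 (1.03 to 2.24).

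The inducible subunits followed Tap2, with medians of 2.34 for Psmb10, 1.79 for Psmb9 and 1.66 for Psmb8, and Tapbp had 1.28. H2-K1 (0.878), Tap1 (0.869) and Nlrc5 (0.794) lay near the median of all genes, which was 0.730. Psmb9 had 0 nascent of 124 total reads in replicate 1 of DMSO with TDP-43, where 3 reads would be a share of 2.42% (95% exact Clopper-Pearson upper limit 2.93%). Nlrc5 had 0 of 1093 in replicate 3 of C13 with TDP-43, where 3 reads would be 0.274% (upper limit 0.337%), and 0 of 604 in replicate 3 of C13 with sham, where they would be 0.497% (upper limit 0.609%). These limits cover counting error only. Converted bases are thymines, and their share in the last 250 bases was 36% in both heavy chains, 34% in B2m, 28% in Tap2 and 19.2% in Psmb10. The part of base composition in the order of the genes was not tested.

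**Figure D4:**
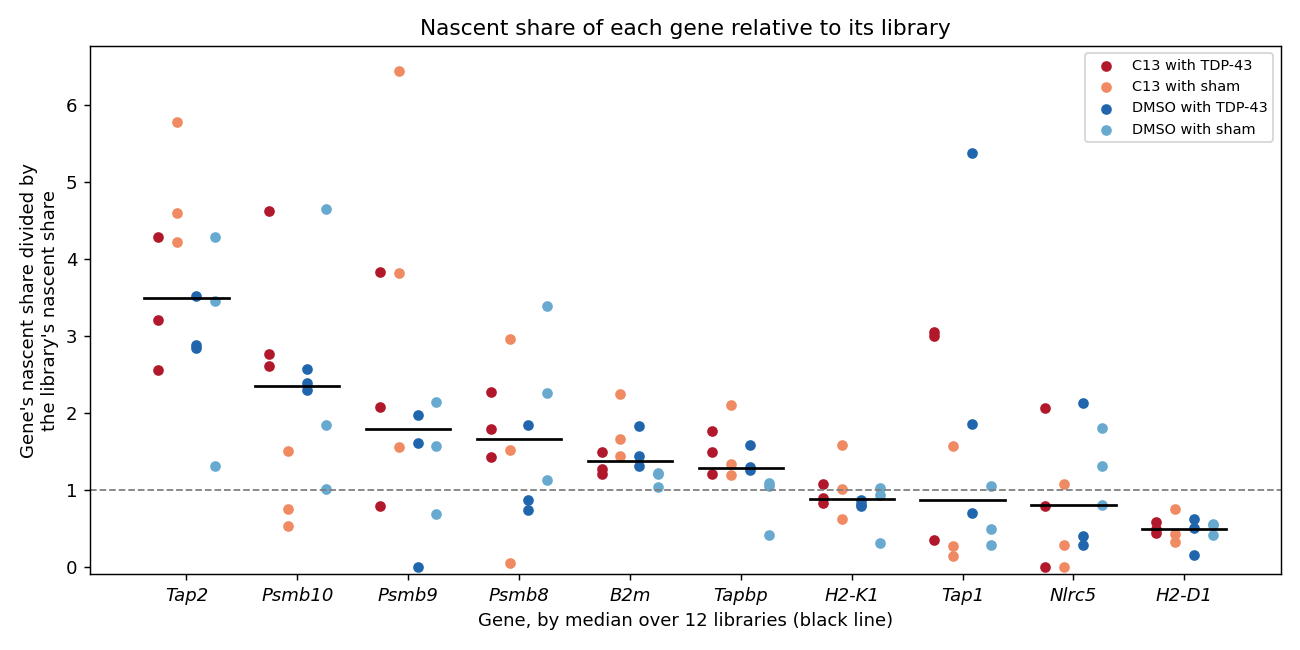
Nascent share of each gene divided by the nascent share of its library (y axis, 1 marks the library's own share), for 12 libraries in 4 groups; black lines are medians over the libraries. H2-D1 lies below 1 and Tap2 and B2m above 1 in all 12 libraries.

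H2-D1 and H2-K1, which encode interchangeable partners of B2m, were compared within libraries. H2-D1 had more total reads than H2-K1 in 11 of 12 libraries, the exception being replicate 2 of C13 with sham, with a mean log2 ratio of 0.42 ± 0.44 (SD, n = 12; two-sided exact permutation test over 4096 sign changes, p = 0.00684). Its nascent share was lower than that of H2-K1 in 11 of 12 libraries, the exception being replicate 3 of DMSO with sham, with a mean log2 ratio of -0.90 ± 0.80 (SD, n = 12; two-sided exact permutation test, p = 0.00293, adjusted over the 2 ratios p = 0.00586). Without the 2 libraries that stand apart the mean log2 ratios were 0.35 and -0.65 (exact permutation p = 0.0215 and p = 0.0117, n = 10), and without the third as well 0.45 and -0.62 (exact permutation p = 0.00391 and p = 0.0234, n = 9). The ratios were chosen with these data known, and the libraries share 1 cell line.

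To ask whether the joint movement of nascent and other reads differed, both were put in 1 edgeR fit. For TDP-43 against sham 0 of 10 genes passed (0.0141% of all genes), the highest being Tap1 at 1.96 (SE 1.10, edgeR adjusted p = 1). For C13 against DMSO with TDP-43 0 of 10 passed (0.00% of all genes).

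Each inducible subunit replaces 1 constitutive subunit of the standard proteasome, Psmb8 replacing Psmb5, Psmb9 replacing Psmb6 and Psmb10 replacing Psmb7. The inducible transcripts were the minor ones in every library. Psmb8 made up 13.1% ± 3.13 of the summed CPM of Psmb8 and Psmb5, Psmb9 4.21% ± 1.73 of Psmb9 and Psmb6, and Psmb10 17.3% ± 5.65 of Psmb10 and Psmb7 (SD, n = 12). The groups of Psmb8 and of Psmb9 overlapped in all 4 pairwise comparisons. The share of Psmb10 averaged 14.6% ± 4.21 in C13 with TDP-43, 23.2% ± 6.96 in C13 with sham, 18.5% ± 3.48 in DMSO with TDP-43 and 12.9% ± 1.51 in DMSO with sham (SD, n = 3 each). C13 with sham and DMSO with TDP-43 each lay above DMSO with sham in every library (two-sided exact permutation test, p = 0.1 each, the smallest that 3 against 3 allow, adjusted over 12 comparisons p = 0.6). The highest share in C13 with sham, 31.3%, was that of replicate 2, one of the libraries that stand apart, against 18.9% in replicate 1 and 19.6% in replicate 3.

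The level of Psmb10 itself was 18.8 ± 8.61 CPM in C13 with TDP-43 and 20.5 ± 7.09 CPM in C13 with sham. With DMSO it was 15.03 ± 5.05 CPM with TDP-43 and 17.8 ± 6.14 CPM with sham, and the groups overlapped. The level of Psmb7 was 106.5 ± 15.7 CPM in C13 with TDP-43 and 68.3 ± 21.1 CPM in C13 with sham. With DMSO it was 64.5 ± 10.4 CPM with TDP-43 and 117 ± 26.8 CPM with sham (SD, n = 3 each). Psmb7 also overlapped between C13 with sham and DMSO with sham, at a log2 difference of -0.78 (SE 0.26, edgeR adjusted p = 0.794). It did not overlap between DMSO with TDP-43 (52.9 to 73.04 CPM) and DMSO with sham (89.8 to 143 CPM), at a log2 difference of -0.87 (SE 0.26, edgeR adjusted p = 0.999). With C13 the difference of Psmb7 between TDP-43 and sham had the other sign, at 0.64 (SE 0.26, edgeR adjusted p = 0.538). Its interaction was 1.51 (SE 0.36, edgeR adjusted p = 0.241). By library, Psmb7 in C13 with sham was at 92.5, 59.3 and 53.2 CPM, the last 2 being replicates 2 and 3, which stand apart. Replicate 1 lay within the range of C13 with TDP-43 (88.6 to 118 CPM). The lowest library of DMSO with TDP-43, at 52.9 CPM, was replicate 3, which stands apart too. Values of Psmb7 without these libraries were not tested.

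**Figure D5:**
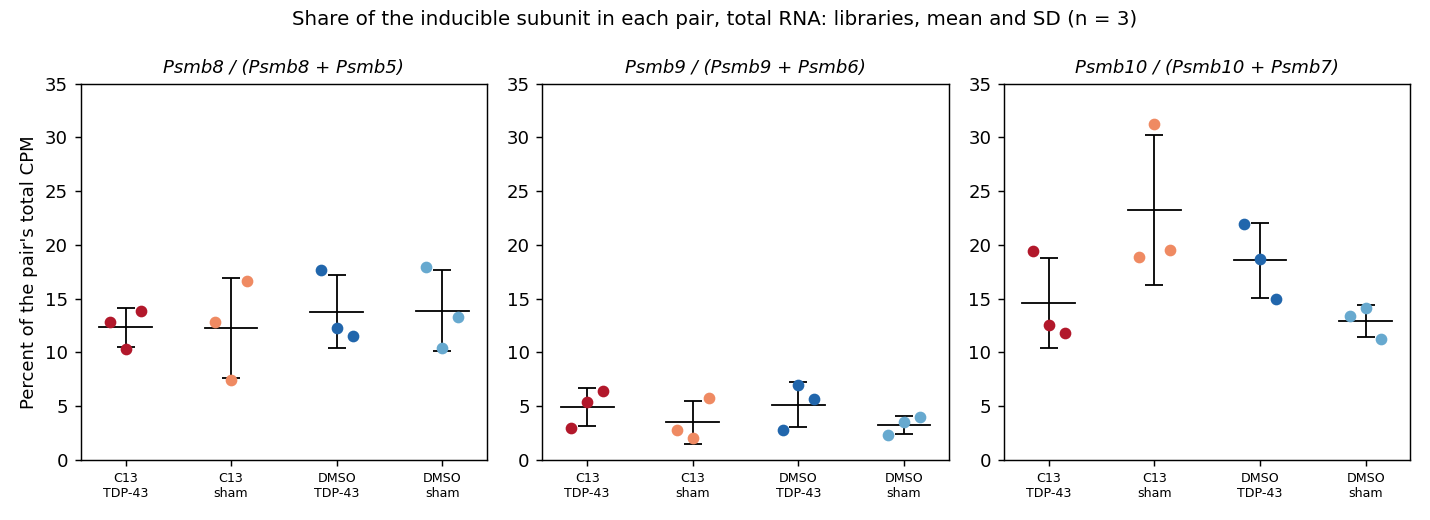
Share of the inducible subunit in the summed CPM of each inducible and constitutive pair (percent, total RNA) in 4 groups of 3 libraries; points are libraries, lines the mean and bars ± 1 SD. Psmb10 reaches 23.2% on average in C13 with sham and 12.9% in DMSO with sham.

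Of the wider pathway, lists were made of other class I heavy chains, peptide loading and trimming, proteasome activators and assembly factors, constitutive catalytic subunits, regulators of class I genes, MHC class II and genes induced by interferon gamma. In total RNA 0 tested members of any list passed in any of the 7 comparisons, in each of which 0.00% of all genes passed. Of 19 other class I heavy chains counted, 13 passed the filter on low counts, and 11 of these were positive for TDP-43 against sham averaged over both arms. Genes of very few reads, such as H2-T24 at 0.855 ± 0.518 CPM in C13 with TDP-43 and 0.0504 ± 0.0872 CPM in C13 with sham (SD, n = 3 each), can pass through the groups where they are high, so that this count says nothing of the list. Of the regulators, 14 of 25 were positive in that comparison with a median of 0.04, against -0.01 over all genes.

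Peptide loading and trimming genes had 6 of 10 positive and a median of 0.04 in the same comparison. Tapbpl, which encodes a tapasin-related peptide editor, averaged 24.8 ± 5.09 CPM in C13 with TDP-43 and 8.33 ± 4.70 CPM in C13 with sham, and 11.4 ± 0.222 CPM in DMSO with TDP-43 and 17.7 ± 2.48 CPM in DMSO with sham (SD, n = 3 each). Its interaction was 2.22 (SE 0.55, edgeR adjusted p = 0.244). C13 with sham includes libraries that stand apart, and the value without them was not tested. Tapbpl was not alone in this among the list genes. The interaction was -3.64 (SE 1.10, edgeR adjusted p = 0.406) for the class II gene H2-Oa and 1.37 (SE 0.44, edgeR adjusted p = 0.441) for the assembly factor Pomp. Proteasome activators and assembly factors had 2 of 9 positive with a median of -0.13, and constitutive catalytic subunits 0 of 3 positive with a median of -0.11. MHC class II genes had 1 of 6 positive with a median of -0.23, and genes induced by interferon gamma 5 of 7 with a median of 0.70, on 7 of 15 that passed the filter on low counts. Both lists hold genes of very few reads. H2-DMb2 averaged 0 CPM in DMSO with TDP-43 and 0.541 ± 0.938 CPM in DMSO with sham, and Gbp3 1.18 ± 1.09 and 0.0317 ± 0.0549 CPM. Such genes can pass through the groups where they are high, so the counts and medians of these 2 lists say nothing of the lists.

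The genes whose total RNA pattern over the 12 libraries was most like the mean of the 10 genes were Sem1 (Pearson correlation 0.895), Ndufa1 (0.868), Stap1 (0.844), 1810037I17Rik (0.838) and Ppdpf (0.828), among 7277 genes with a mean of at least 10 CPM. This is a description over 12 libraries that share their depth and composition with the genes compared. In bulk RNA, fewer cells expressing a gene and less RNA per cell cannot be told apart.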

How the data were processed

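The authors deposited raw read counts per Ensembl gene in a nascent and a total table of 12 libraries each, unnormalized. Per the submitters' processing notes the genome build was GRCm38. Which programs aligned and counted the reads, and how a read was called nascent, is not given in the sources used here. RNA was treated with iodoacetamide and made into 3′-end libraries, per the labels' protocols.

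Gene identifiers were matched to a GRCm38 annotation (30940 of 30994). The labels call the libraries biological replicates and do not say how the cultures were separated. The tests take these libraries as their units, and the edgeR p-values set differences against the spread between them. Genes were kept by filterByExpr (7078 nascent, 11827 total), which all 10 genes passed in both tables, so the permutation test planned for low genes was not needed. Counts were scaled by TMM and compared with edgeR 4.0.16 (R 4.3.3), its quasi-likelihood test, with 4 group means fitted to all 12 libraries at once. Adjustment was by Benjamini-Hochberg over all genes tested, with a threshold of 0.05. Standard errors were derived from the fold change and the F statistic. CPM use TMM-scaled library sizes, and correlations use log2(CPM + 0.5). No 2 replicates agreed within sampling noise (chi-square per degree of freedom at least 67.6). The scripts were tested on simulated data.

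The members, the lists and the pair ratios were chosen with earlier results of these data known. Fold changes are given for members whose groups do not overlap or whose unadjusted p is under 0.05, and of each list up to 3 genes with the smallest p for TDP-43 against sham averaged were considered for naming. Values beyond that rule, such as the extremes of a comparison, were chosen after they were seen. Alternatives were DESeq2 1.42.0, its size factors, no filter, a replicate block, only the groups compared, total-table library sizes and leaving out each library. Dividing counts by their common factor and leaving out 2 or 3 libraries were added after seeing the data.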

Additional observations from a re-analysis of the deposited data

How the results depend on the processing

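No alternative called any of the 10 genes: over 281 combinations of setting and comparison the highest number called was 0. Of the fold changes in the text, 19 were each recomputed under 19 to 21 settings, 383 values in all, of which 6 changed sign. With total-table library sizes nascent B2m came to -0.47 for C13 against DMSO with sham, nascent Tapbp to -0.0178 for TDP-43 against sham in DMSO and the nascent interaction of Tap1 to 0.26. That interaction was -2.43 to 0.91 leaving out each library, 1.42 without both libraries that stand apart and 1.03 without replicate 2 of C13 with sham as well. The lowest adjusted p was 0.251 (DESeq2, nascent Tapbp, C13 against DMSO with sham). Leaving out each library, the log2 ratio of H2-D1 to H2-K1 ran from 0.35 to 0.50 in total reads and from -1.06 to -0.76 in nascent shares, with exact permutation p of at most 0.0137 (n = 11). Counts of calls over all genes moved more, and the cause was not tested. In what follows the comparisons are in the order TDP-43 against sham in DMSO, in C13 and averaged, C13 against DMSO with TDP-43, with sham and averaged, and the interaction. Without the filter edgeR called 6, 30, 18, 10, 29, 11 and 38 genes in nascent RNA and 10, 124, 33, 33, 59, 18 and 124 in total RNA. DESeq2 called 7, 77, 13, 18, 29, 10 and 46 in nascent RNA and 8, 99, 33, 30, 41, 21 and 108 in total RNA. With only the groups compared, 1 gene was called in total RNA for TDP-43 against sham in C13. Dividing counts by their common factor gave 2 for the total interaction, and leaving out both libraries that stand apart gave 1 in total RNA for TDP-43 against sham in C13 and 1 averaged. Without replicate 2 of C13 with sham as well these were 1 and 2, with 1 for C13 against DMSO with TDP-43 and 5 for the interaction. Leaving out 1 library gave 0 to 1 in nascent RNA for TDP-43 against sham in C13, averaged and the interaction, and 0 to 1 for nascent against other reads averaged. In total RNA it gave 0 to 4 for TDP-43 against sham in C13, 0 to 1 averaged, 0 to 2 for C13 against DMSO with sham and averaged, and 0 to 3 for the interaction.

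The replicate numbers were not taken as a pairing, since the labels do not tie them to a shared batch and not every same-numbered pair correlated over 0.1: correlations ran from -0.0500 to 0.197, 4 of 18 pairs were over 0.1, and 8 of 12 libraries correlated best with their own number, a hint from the data and not from the design. With a replicate block, 0 genes were called in nascent RNA for TDP-43 against sham averaged, against 1 without it, and 2 for the total interaction. Depth limits the nascent values of Tap1, Tap2, Psmb8, Psmb9, Psmb10 and Nlrc5, each of which had 8 or fewer nascent reads in at least 1 library.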
